A study of Mus musculus with 71 samples.

Results

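The Lmo, Lhx, Isl and Ldb genes encode the LIM domain transcriptional regulators and the cofactors that bind them, and their promoter loops were examined in mouse synovial sarcoma (SyS). The set comprised 10 genes, which were Lmo1, Lmo2, Lmo4, Lhx1, Lhx2, Lhx9, Isl1, Isl2, Ldb1 and Ldb2, among 21755 protein-coding genes and 53843 genes of all types in the annotation. A loop was counted for a gene when either of its anchors, the regions of chromatin that it joins, reached within 2 kb of any annotated transcription start site (TSS) of that gene. The data were H3K27ac HiChIP loops from 2 SyS tumors of mice that express human SS18::SSX2 (hSS2), a fusion oncogene that was switched on in hindlimb cells by injected TATCre protein. Both tumors carried the same fusion and the same treatment, so there was no untreated or fusion-free sample for comparison. HiChIP ligates neighboring chromatin fragments, captures those carrying a histone mark, here the acetylation of histone H3 found at active promoters and enhancers, and counts the paired-end tags that join each pair of anchors. The series holds 71 samples, and its 47 ChIP-seq and 22 input samples are not analysed here.

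LIM-only (Lmo) proteins consist almost entirely of LIM domains and do not bind DNA themselves, whereas LIM-homeodomain proteins (Lhx, Isl) join LIM domains to a homeodomain that does. Ldb proteins bind the LIM domains of either family and also bind each other, which lets them bridge a distant enhancer and a promoter, as is well known for Ldb1 at the beta-globin genes of red blood cells. In the limb, Isl1 is needed to start the hindlimb bud and Lhx2 and Lhx9 act in its outgrowth, while Lmo4 competes with other LIM proteins for Ldb1.

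The loops came as a merged list of both tumors with 24244 loops and 41574 tags, and the median loop had 1 tag. The list held 2 parts one after the other, each sorted by position, with 28657 tags (68.9%) in the first and 12917 in the second. Neither was assigned to a tumor, so values are given by part and not by tumor. Since there are no replicate values, no test between samples was possible, and the intervals given here cover counting error only. A count of 0 allows as many as 3 tags by a one-sided limit, while the upper end of the two-sided Poisson interval used for the other counts is 3.69 tags at 0. All listed loops had an FDR under 0.05, the threshold of the study's methods, and 20551 of them had one of at least 0.01, a threshold named in a supplementary legend of the study. Among marker genes, Pdgfra had 41 tags, Sox2 39 and Twist1 22 in a list of 7 mesenchymal and SyS genes, 5 of which were looped. Loops were found at 2 of 6 endothelial, 0 of 5 blood, 1 of 5 skeletal muscle and 1 of 5 neuronal markers, with at most 3 tags each, beside 46.2% of all protein-coding genes, and no difference between these short lists was tested. Col1a1 and Bcl2 of the first list had no loop. Tumors contain cells other than tumor cells, and fewer cells with a loop cannot be told apart from fewer contacts per cell in these data.

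The promoter of Lmo4 and the distal regions that it met are shown first, since they carry most of the signal, followed by the promoters of Ldb1 and by those of Lhx1 and Isl1, which had no loop. Each promoter is the 250 bases before a RefSeq TSS (GRCm38.p6), written 5′ to 3′ in the direction of transcription. Each distal region is the central 300 bases of the overlap between the anchors of both parts (GRCm38), on the plus strand. CpG dinucleotides are in capitals.
Lmo4 promoter, chr3:144205256-144205505, minus strand: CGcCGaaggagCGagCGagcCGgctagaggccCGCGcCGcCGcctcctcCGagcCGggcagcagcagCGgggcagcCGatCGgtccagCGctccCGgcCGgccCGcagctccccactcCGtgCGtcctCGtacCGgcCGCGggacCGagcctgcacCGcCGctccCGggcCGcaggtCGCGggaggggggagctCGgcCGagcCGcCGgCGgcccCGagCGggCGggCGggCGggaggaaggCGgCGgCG
Lmo4 distal region downstream, chr3:143912533-143912832, plus strand: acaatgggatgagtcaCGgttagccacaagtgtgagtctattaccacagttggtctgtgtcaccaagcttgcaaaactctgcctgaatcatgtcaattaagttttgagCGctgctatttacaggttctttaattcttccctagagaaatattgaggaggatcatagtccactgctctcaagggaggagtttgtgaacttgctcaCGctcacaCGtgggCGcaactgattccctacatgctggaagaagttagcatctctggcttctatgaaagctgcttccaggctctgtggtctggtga
Lmo4 distal region upstream, chr3:144379941-144380240, plus strand: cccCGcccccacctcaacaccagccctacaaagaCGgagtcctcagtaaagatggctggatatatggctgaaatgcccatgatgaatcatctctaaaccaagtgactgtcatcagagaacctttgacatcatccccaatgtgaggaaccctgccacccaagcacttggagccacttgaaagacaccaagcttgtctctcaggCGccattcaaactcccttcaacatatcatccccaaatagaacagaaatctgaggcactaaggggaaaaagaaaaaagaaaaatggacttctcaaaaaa
Ldb1 upstream promoter, chr19:46045312-46045561, minus strand: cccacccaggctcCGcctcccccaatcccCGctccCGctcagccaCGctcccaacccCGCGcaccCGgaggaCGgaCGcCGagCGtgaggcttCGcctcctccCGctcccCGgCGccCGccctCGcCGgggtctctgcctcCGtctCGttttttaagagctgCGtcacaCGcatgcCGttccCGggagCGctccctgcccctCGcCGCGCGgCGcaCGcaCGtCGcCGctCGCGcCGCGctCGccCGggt
Ldb1 internal promoter, chr19:46039622-46039871, minus strand: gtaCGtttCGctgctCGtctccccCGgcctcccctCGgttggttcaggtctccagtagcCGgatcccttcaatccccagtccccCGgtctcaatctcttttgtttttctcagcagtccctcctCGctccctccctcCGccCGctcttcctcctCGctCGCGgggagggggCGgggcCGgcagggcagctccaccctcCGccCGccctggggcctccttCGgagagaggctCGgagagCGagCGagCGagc
Lhx1 promoter, chr11:84525535-84525784, minus strand: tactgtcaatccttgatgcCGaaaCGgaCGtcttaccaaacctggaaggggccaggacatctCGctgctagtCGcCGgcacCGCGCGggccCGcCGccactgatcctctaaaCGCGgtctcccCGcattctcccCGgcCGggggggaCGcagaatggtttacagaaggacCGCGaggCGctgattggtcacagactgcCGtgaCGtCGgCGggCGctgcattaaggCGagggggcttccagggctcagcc
Isl1 promoter, chr13:116309689-116309938, minus strand: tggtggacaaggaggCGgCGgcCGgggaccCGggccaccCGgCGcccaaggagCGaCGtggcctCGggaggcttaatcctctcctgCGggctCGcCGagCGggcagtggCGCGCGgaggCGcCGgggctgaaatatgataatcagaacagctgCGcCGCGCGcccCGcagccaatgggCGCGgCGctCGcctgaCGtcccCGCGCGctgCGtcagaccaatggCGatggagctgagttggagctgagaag

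The promoters were dense in CpG whether or not they were looped. The 300 bases around the outermost start of Lmo4 held 52 CpG, and those around its other listed starts, inside the gene, held 31 and 30. The same stretch held 37 CpG at Isl1 and 31 at Lhx1, and 41 at the upstream and 23 at the internal promoter of Ldb1. Over the 14 promoters listed for 8 of the genes the median was 30.5 CpG, against 7 over 32851 mouse promoters. The median was 30.5 for the 6 promoters in reach of a loop anchor and 30 for the 8 that were not. Those in reach came from Lmo4 and Ldb1 alone, and some windows of Lmo4 and of Lmo1 overlap. The lowest values were 5, at a further start inside Ldb1, and 6, at Lhx9. In contrast, the distal regions of Lmo4 were poor in CpG, with 5 in the downstream and 3 in the upstream window shown above. Lmo2 and Ldb2 were not among the sequences used here.

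Lmo4 was the most strongly looped of the 10 genes, followed by Ldb1 and Lmo2, and the other 7 genes had no loop in the list. Lmo4 had a loop score, the sum of the tags over its loops, of 28 tags (95% exact Poisson interval 18.6 to 40.5). Ldb1 had 9 tags (4.12 to 17.1), and its interval narrowly missed that of Lmo4. This gap depended on a 9-tag loop that stays inside Lmo4. With loops of at least 20 kb alone, Lmo4 had 19 tags and Ldb1 9, and in the second part alone they had 5 and 3. Lmo2 had 2 tags (0.242 to 7.22), an interval that overlapped that of Ldb1 and also held the 3 tags that a count of 0 allows. Lmo1, Lhx1, Lhx2, Lhx9, Isl1, Isl2 and Ldb2 were each at 0 tags. Thus 3 of 10 genes were looped, beside 46.2% of all protein-coding genes. With loops at an FDR under 0.01 alone, 1 gene was looped, Lmo4, with 9 tags. The median loop score was 0 tags over the 10 genes and also 0 tags over all protein-coding genes, with a median of 4 tags among the looped ones. Together the looped genes had 20 distinct loops with 39 tags (27.7 to 53.3), of which Lmo4 held 71.8%.

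**Figure D1:**
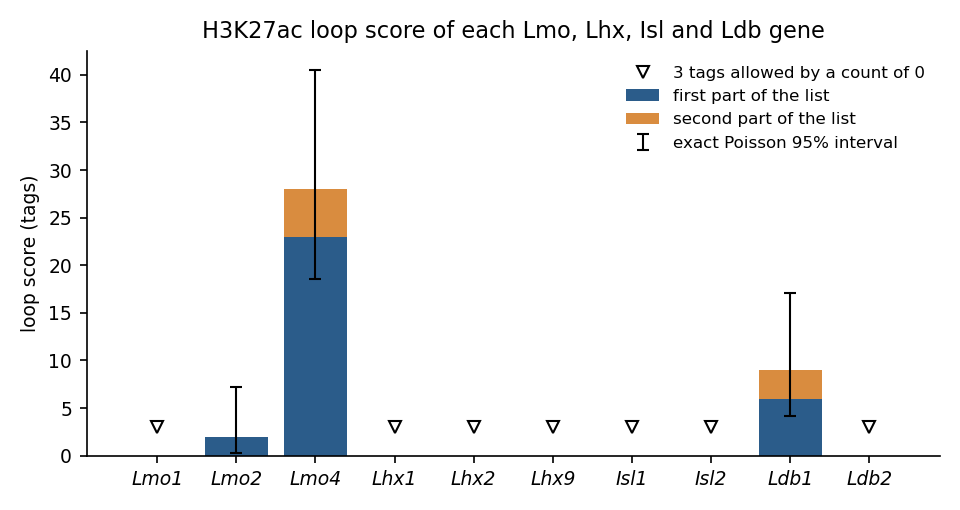
Loop score in tags (y axis, from 0) of each of the 10 genes (x axis), split by the part of the list and with exact Poisson 95% intervals; open triangles mark the 3 tags that a count of 0 allows. Lmo4 stands at 28 tags, Ldb1 at 9 and Lmo2 at 2, and 7 genes are at 0.

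Lmo4 and Ldb1 had loops in each part of the list and Lmo2 in the first alone. Of the tags of Lmo4, 23 were in the first part and 5 in the second, so that the first held 82.1% (Wilson 95% interval 64.4 to 92.1), which includes the 68.9% of the whole list. Ldb1 had 6 and 3 tags, and Lmo2 2 and 0. A loop in each part was found at 24.5% of protein-coding genes. A loop score of at least 9 tags, the value of Ldb1, was reached by 12.3% of protein-coding genes, and one of at least 28 tags, the value of Lmo4, by 2.92% (636 genes).

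**Figure D2:**
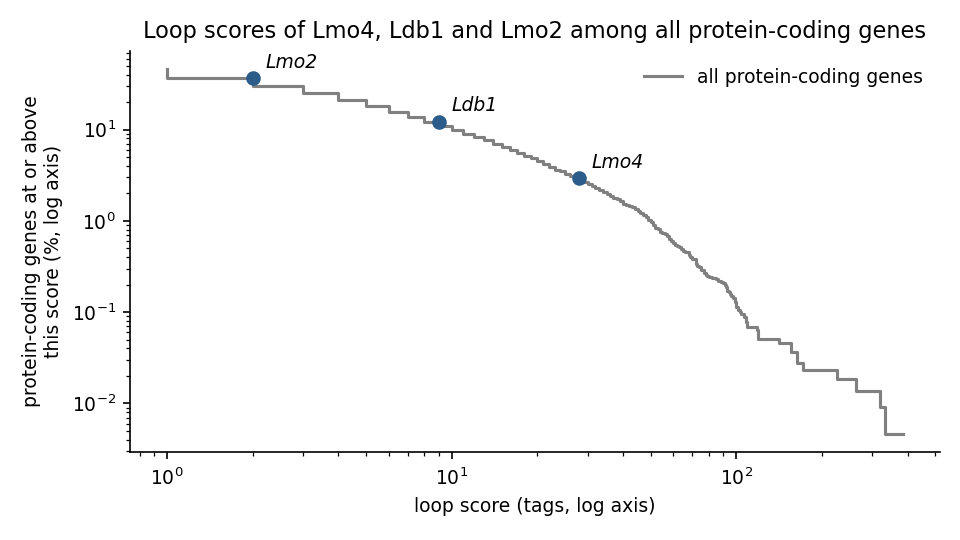
Percentage of protein-coding genes (y axis, log scale) with at least a given loop score in tags (x axis, log scale), with Lmo2, Ldb1 and Lmo4 marked on the line. The line passes 12.3% at the 9 tags of Ldb1 and 2.92% at the 28 tags of Lmo4.

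Lmo4 (ENSMUSG00000028266.17, chr3:144188530-144205220, minus strand) lies in a gene-poor stretch, with 3 protein-coding genes within 500 kb against a median of 16 for all protein-coding genes. It had 12 loops, 5 of them with a single tag. There were 7 loops with 20 tags to the downstream side of its start, in the direction of transcription, and 5 loops with 8 tags to the upstream side. Most of the signal was close by, as 9 loops with 24 tags lay within 400 kb. The anchors at the promoter were chr3:144203275-144206381 in the first part and chr3:144201068-144205425 in the second, and the latter also came within 2 kb of the start of Gm43445, a transcript inside Lmo4.

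The loop with the most tags was the shortest. It joined the promoter to an anchor inside the gene, chr3:144197914-144199531, with 9 tags over 6.11 kb, all in the first part, at an FDR of 0.0463. This anchor overlapped the start of Gm43445, so it was counted as near a TSS of another gene although it lies within Lmo4.

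At a greater distance, the promoter met a pair of regions that were listed in each part. The first was chr3:143910921-143915842, 292.5 kb downstream, which overlaps an exon of the long noncoding RNA gene Gm42707 and lies 12.9 kb from the closest TSS, that of Gm42708. Its loops had 2 tags in the first part (FDR 0.00689) and 2 in the second (FDR 0.000628). The other was chr3:144378468-144381239, 174.6 kb upstream and outside genes, with 3 tags in the first part (FDR 0.0117) and 1 in the second (FDR 0.0188). These are the regions whose central sequences are shown above.

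Further loops of Lmo4 were seen in 1 part only. A region outside genes 339.7 kb downstream, chr3:143864440-143866551, had 3 tags and the lowest FDR of all loops of the 10 genes, 0.000115. A region 194.4 kb upstream, chr3:144398854-144400366, had 2 tags at an FDR of 0.0262. Outside the near range, 2 tags (FDR 0.00037) joined Lmo4 to the promoter of Gtf2b, the general transcription factor TFIIB, over 1439.6 kb, the longest loop of the 10 genes. Single tags reached the start of the kinase gene Pkn2, of Sh3glb1, which encodes endophilin B1, and of the noncoding Gm43447, and a region 116.6 kb downstream.

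**Figure D3:**
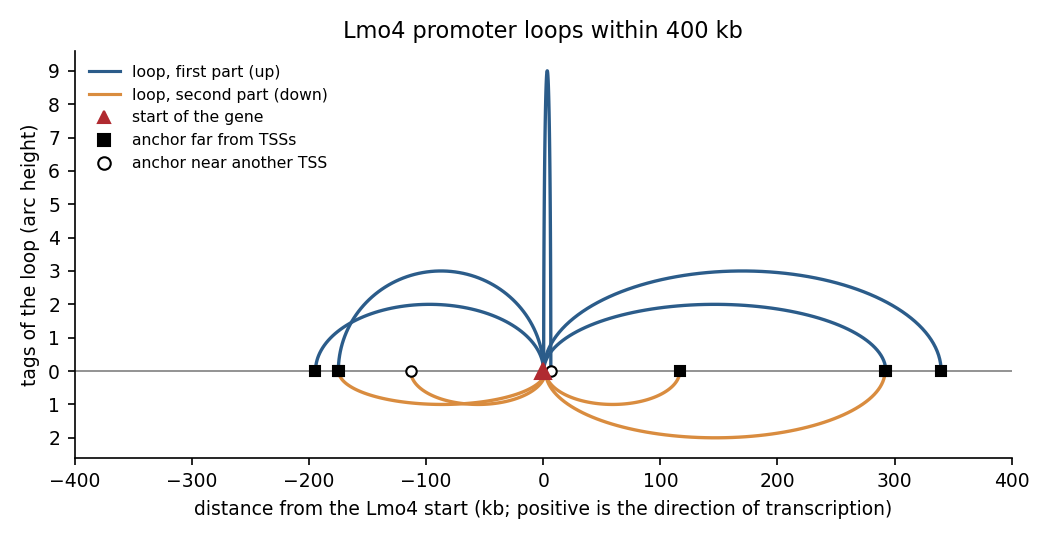
Loops of the Lmo4 promoter within 400 kb, by distance from the start of the gene in kb (x axis, positive in the direction of transcription) and tags per loop (arc height on the y axis), with the first part of the list above and the second below the line. The regions at 292.5 kb downstream and 174.6 kb upstream have an arc on each side of the line, and the 9-tag arc ends inside the gene.

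Of the 12 distal anchors of Lmo4, 7 (58.3%, Wilson 95% interval 32.0 to 80.7) were more than 2 kb from any TSS, and they took 14 of its 28 tags. At least 7 such anchors were found at 0.193% of protein-coding genes (42 genes). Since anchors of both parts can mark the same place, overlapping ones were also merged, which left 10 separate regions, 5 of them far from TSSs. At least 5 separate far regions were found at 0.446% of protein-coding genes (97 genes). These percentages are over all protein-coding genes, of which 46.2% had any loop, and genes with a loop score like that of Lmo4 were not compared. Among the 10 genes no other had a far distal anchor. Over all 19 distinct distal anchors of the looped genes, 12 (63.2%, 41.0 to 80.9) were near a TSS of another gene. The same share was 79.2% (78.6 to 79.9) over the 14976 distal anchors of all looped protein-coding promoters, which lies within the interval of the smaller set. The intervals of these shares treat overlapping anchors of the 2 parts as separate places, which they may not be.

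The distal regions of Lmo4 were also joined to one another. Leaving out its promoter, 10 loops with 12 tags ran between its 10 regions. Among the promoter, the anchor inside the gene and the pair of regions listed in each part, all 6 possible pairs were joined, by 9 loops with 23 tags. The pairs that include the promoter were joined by selection, since the other places were chosen for their loops to it. Only the pairs without it could have been unjoined, and how often such pairs are joined at other genes was not tested. The downstream and upstream regions were joined to each other over the gene in each part, with 2 tags in the first (FDR 0.00169) and 1 in the second (FDR 0.0119). The anchor inside the gene was joined to the upstream region by 2 tags (FDR 0.00134) and to the downstream region by 1 (FDR 0.0135), both in the second part, where its loop to the promoter was not listed. The start of Pkn2 and that of Sh3glb1 were likewise joined in each part, by 1 tag each, over the whole of the locus. Upstream of Lmo4, anchors at the 174.6 kb region carried 6 loops with 8 tags that did not involve the Lmo4 promoter.

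Anchors of Lmo4 far from TSSs had an observed over expected CpG ratio between 0.268 and 0.412, while its promoter anchors had 0.729 and 0.661. The anchor inside the gene had 0.634. Of its other distal anchors near a TSS, the one at Gm43447 had 0.304, within the range of the far ones, and the rest had between 0.632 and 0.795. MboI, the enzyme that cut the chromatin, sets where ends can be ligated, and the far anchors held between 1 and 7 of its sites, against a median of 5 over 16864 anchors. The E-box CAGNTG occurred in the central window of the downstream region and not in that of the upstream region, on either strand, and 49.0% of all anchors have it in their central 300 bases. The homeodomain core TAATTA and the GATA core GATAA were in neither window, and 2.94% and 18.2% of all anchors have them there. The windows are only the center of each region. The whole overlaps from which they were cut held all of these motifs. The downstream overlap (3525 bases) had 1 TAATTA, 5 GATAA and 11 CAGNTG, and the upstream one (2297 bases) had 3, 3 and 5. Among the 14 promoters, some of which overlap, TAATTA was in 2, a single site shared by the overlapping windows of Lmo1 (5.29% of all promoters have it), CAGNTG in 5 (51.4% of all) and GATAA in 3 (25.4% of all).

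Ldb1 (ENSMUSG00000025223.15, chr19:46031570-46045214, minus strand), the gene of the bridging cofactor itself, differed from Lmo4 in its surroundings and in what it met. It lies among 24 protein-coding genes and 80 loops within 500 kb, and all 6 of its distal anchors were near a TSS. These were not all separate places, as the anchors at Nfkb2 and at Lbx1, described below, overlap between the parts. Over all looped protein-coding promoters, 79.2% of distal anchors were near another TSS. The 7 loops of Ldb1, 5 with a single tag, left from 2 promoter anchors. The internal one, chr19:46037157-46041084, had 4 loops with 5 tags and the upstream one, chr19:46043840-46047305, had 3 loops with 4 tags.

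More than any other partner, Ldb1 met the start of Nfkb2, an NF-κB subunit gene, at a distance of 259.8 kb. These loops took 5 of its 9 tags, 3 from the internal and 2 from the upstream promoter. In the first part each promoter had 2 tags to Nfkb2 (FDR 0.0116 for the internal and 0.0112 for the upstream one), and in the second the internal one had 1 (FDR 0.015). The same anchors overlap AC114539.1. Lbx1, a homeobox gene of migrating muscle precursors in the limb, was met by 1 tag in each part, from the upstream promoter over 809.7 kb in the first (FDR 0.0262) and from the internal one over 806.7 kb in the second (FDR 0.0118). Single tags reached the anchor shared by Cuedc2, Fbxl15 and Psd (283.9 kb) and the one shared by Pdcd11 and Usmg5 (1051.8 kb). The partners were busy anchors of the list, as those at Lbx1 carried 14 loops with 29 tags and those at Nfkb2 10 loops with 17 tags, Ldb1 included.

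Lmo2 (ENSMUSG00000032698.15, chr2:103957986-103981878, plus strand), a LIM-only gene required in blood stem cells, had a single loop of 2 tags, in the first part, at an FDR of 0.0483. The loop left from an internal promoter, chr2:103969122-103971906, 12.5 kb into the gene, and reached the start of Caprin1, an RNA-binding protein gene, over 173.6 kb. No loop was listed at the outermost start of the gene. With 17 loops within 500 kb, Lmo2 lay at the median of all protein-coding genes, which was 17.

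**Figure D4:**
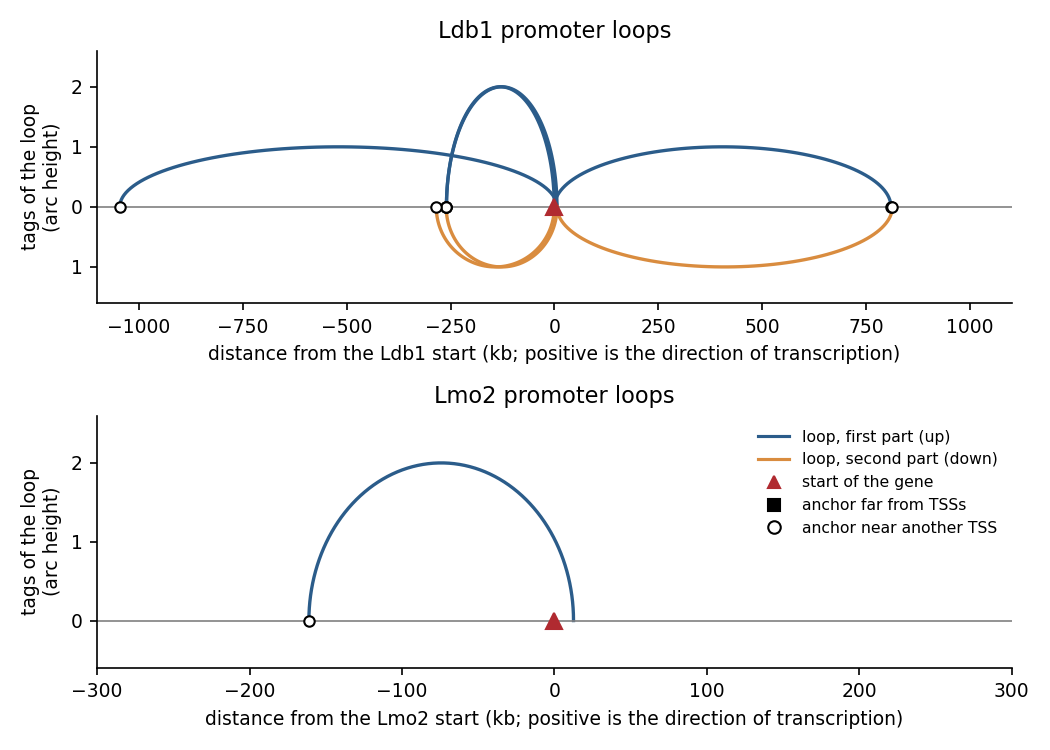
Loops of Ldb1 (top) and Lmo2 (bottom) by distance from the start of each gene in kb (x axis, positive in the direction of transcription) and tags per loop (arc height on the y axis), with the first part of the list above and the second below the line. All distal anchors are open circles, near the TSS of another gene, and no loop has more than 2 tags.

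The 20 loops of these genes ran from 6.11 to 1439.6 kb between the midpoints of their anchors. The median distance was 275.2 kb, against 500.3 kb over all loops of the list. Loops with a single tag were 10 of 20 (50.0%), against 78.0% of the list.

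The 7 genes without a loop differed in how close the nearest loop anchor of the list lay. Lhx9 (chr1:138825186-138848577, minus strand) and Lhx1 (chr11:84518284-84525535, minus strand), a homeobox gene of head and kidney development, came closest. An anchor at the start of 2310009B15Rik lay 6.95 kb from a TSS of Lhx9, and an anchor at the start of Aatf lay 7.55 kb from a TSS of Lhx1. For Lhx2 (chr2:38339281-38369733, plus strand), the nearest anchor was 51.1 kb away at Dennd1a and Gm13556. For Lmo1 (chr7:109138572-109175207, minus strand), which is an oncogene of T cell leukemia, it was 86.4 kb away at Ric3.

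The remaining genes lay much farther out. The nearest anchor was 306.5 kb from Ldb2 (chr5:44472132-44799680, minus strand), the paralog of Ldb1, at Tapt1, and 327.0 kb from Isl2 (chr9:55538672-55546180, plus strand), a gene of motor neurons, at Fbxo22. Isl1 (chr13:116298281-116309689, minus strand) stood alone, with the nearest anchor 1199.0 kb away at Itga1, no loop and no other protein-coding gene within 500 kb, and no loop passing over it. The median distance over the 7 genes was 86.4 kb, near the 91.8 kb of all unlooped protein-coding genes.

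**Figure D5:**
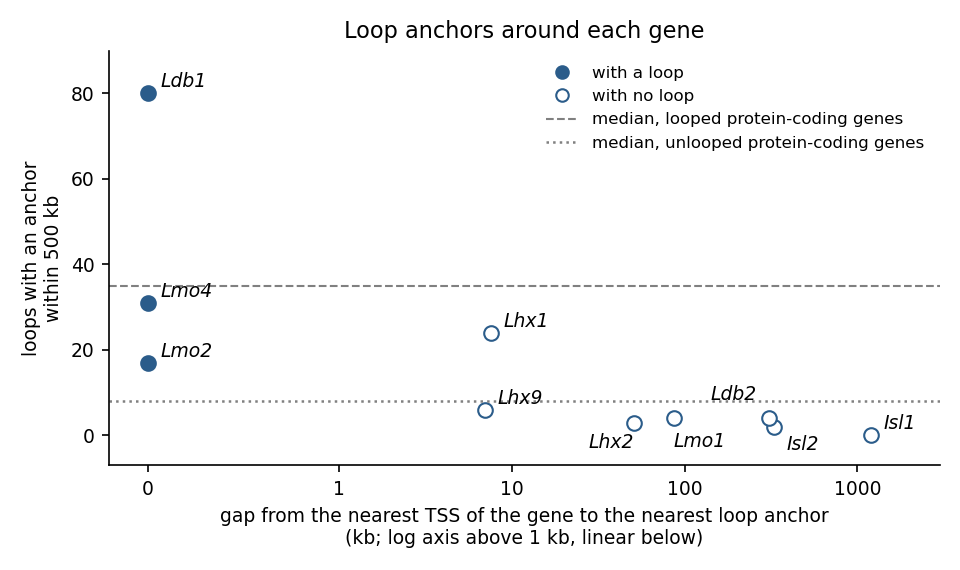
Gap in kb from the closest TSS of each gene to the nearest loop anchor (x axis, log scale above 1 kb and linear below) against the number of loops with an anchor within 500 kb (y axis), for genes with (filled) and without a loop (open). Ldb1 lies highest at 80 loops, Lhx1 is the unlooped gene with the most at 24, and Isl1 lies at 1199.0 kb with 0.

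The neighborhoods of the unlooped genes were not empty except at Isl1. Lhx1 had 24 loops within 500 kb, Lhx9 6, Lmo1 and Ldb2 4 each, Lhx2 3 and Isl2 2, with a median of 4 over the 7 genes. The median was 8 for all unlooped protein-coding genes and 35 for the looped ones. Some loops passed over a gene with both anchors outside it, which was the case for 9 loops at Lhx1, 6 at Lhx2, 4 at Ldb2, 3 at Lmo1, and 2 each at Lhx9 and Isl2. All unlooped protein-coding genes had a median of 2.

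Of 8 further LIM-homeodomain and Lmo genes 5 had a loop, with a median loop score of 1 tag, beside 46.2% looped and a median of 0 tags over all protein-coding genes. Lhx5, the paralog of Lhx1, had 6 tags, Lmx1b, which specifies the dorsal limb, had 3, and Lmo3, Lhx8 and Lmx1a had 1 each. Lhx3, Lhx4 and Lhx6 had none. Genes whose products join LDB1 complexes were looped in 9 of 14 cases, with a median of 2.5 tags, beside the same 46.2% and median of 0. Tcf3, the E protein partner, had 53 tags, Ssbp4, a gene of the single-stranded DNA binding proteins that stabilize Ldb1, had 10, and Rlim, the ubiquitin ligase that targets Ldb1, had 7. Among partners known from blood cells, Tal1, Lyl1, Gata1, Gata2 and Gata3 had no loop, while Runx1 had 5 loops with 5 tags and Cbfa2t3 3 loops with 3 tags.

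Among 12 limb bud genes 7 were looped, with a median of 1.5 tags, again beside 46.2% and a median of 0. The highest scores were those of Msx2 with 20, Msx1 with 18 and Prrx1 with 5 tags. The hindlimb genes Tbx4 and Pitx1 had none, and neither had Tbx5, Shh or En1.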

How the data were processed

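H3K27ac HiChIP was performed by the authors on 2 hSS2 mouse tumors. Read pairs were mapped to mm10 with HiC-Pro and loops were called with hichipper, per the methods. A supplementary legend names Mango as the caller instead, and which of them gave the listed counts and FDR values was not settled here. The methods keep loops with an FDR under 0.05, while the same legend names 0.01, and the deposited list holds values up to the former. In the deposited list each loop has a whole-number tag count, which is not normalized, and an FDR (an adjusted p-value) from the authors' caller. Every loop listed passed that caller, so weak contacts are left out, and how the counts of both tumors were merged is not given in the sources used here. The labels list MACS2 and mm10 as processing tool and build.

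Positions were converted to start at 1, and anchors were assigned to TSSs of all transcripts of GENCODE release M21 (GRCm38), within 2 kb. Every loop counted once for each gene. The depth was 41574 tags over 24244 loops. Poisson intervals were exact, and those of shares were Wilson intervals at 95%. The 10 genes and the gene lists were chosen with earlier results of these data known. The genes named were all 10, every gene at the other end of a loop with at least 2 tags, and the 3 highest of each list, and others named are given to complete a count. The assignment was tested on simulated data, and all of 300 planted promoters were recovered with their tags. The simulated anchors were planted inside the window, so this checks the code and not the assignment of real anchors. As alternatives, the promoter window was set to 1 or 5 kb, and TSSs were taken from RefSeq or from protein-coding transcripts alone. Others were an FDR under 0.01 or 0.001, at least 2 tags, loops up to 1 Mb or of at least 20 kb, each part of the list alone, each anchor pair once, anchors of 4 kb, loop numbers, and tags per kb of promoter anchor. No test was made, as the list has no value per tumor. Protein sequences were not analysed here. Python 3.11.15, pandas 2.3.3, scipy 1.17.1, pysam 0.24.0 and matplotlib 3.10.9 were used.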

Additional observations from a re-analysis of the deposited data

How the results depend on the processing

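The threshold on the FDR moved the results most. With an FDR under 0.01, which leaves 3693 loops, 1 of the genes (Lmo4) was looped, with 9 tags in all. Of the distal anchors, 25% were then near another TSS. The 9-tag loop inside Lmo4 (FDR 0.0463) and all loops of Ldb1 and Lmo2 fell out at this step. So did the loops of Lmo4 to the region 174.6 kb upstream. With an FDR under 0.001 the values were 1 gene, 7 tags and 33.3%. Here the first-part loop of Lmo4 to the region 292.5 kb downstream (2 tags, FDR 0.00689) was also lost. Both shares rest on very few anchors, all of them of Lmo4. In the second part alone the tags fell to 8, which is a smaller list by construction. Lmo4 had the most tags under all 13 alternatives of the loop list, between 5 and 34, the latter with windows of 5 kb or anchors of 4 kb. None of the 7 unlooped genes gained a loop under any of them. Most of these settings could only remove loops, however. The anchor closest to any unlooped gene lay 6.95 kb away, beyond the widest window of 5 kb, so a gain was hardly possible. Ldb1 had between 0 and 9 tags and fell to 4 with loops of at least 2 tags. The median loop score stayed at 0 throughout, and the median distance stayed within its interval of 176.6 to 514.4 kb. The order of Lmo4, Ldb1 and Lmo2 was kept by the number of loops (12, 7 and 1) and by tags per kb of promoter anchor (5.27, 1.22 and 0.718). No paired analysis was possible because the list holds no value per tumor. At a median of 1 tag per loop, a contact of a few tags that the caller did not list cannot be seen, so a score of 0 is no proof that a loop is absent.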
